A study of Mus musculus with 4 samples.

Results

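Many genes of the mouse genome lie so close to a neighbour that the DNA between them may serve both. The regions described here are the gaps of at most 1 kb between adjacent protein-coding genes that do not overlap, each extended by 500 bp on both sides, taken from the RefSeq annotation of GRCm38.p6 (mm10) on the main chromosomes. Of 21883 protein-coding genes, 3647 lay in at least 1 such pair, and 394 of them in more than 1. The rule found 2051 pairs, of which 29 were left out because another coding gene covered the gap, so that 2022 gaps remained, with a median length of 248 bp. The strand of both genes was known for 1449 pairs. In 575 of these the genes point away from each other (head-to-head), in 445 they run in the same direction, and in 429 they point towards each other (tail-to-tail). For 573 pairs, among them all 22 of chromosome 18, the strand of at least 1 gene was not in the tables used here, and these pairs were counted without an orientation.

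At each gap the question was whether Sub1 had been detected there by CUT&Tag, in which an antibody directs a transposase to cut the DNA around a chromatin protein. Sub1, also called PC4, is a small nuclear protein that binds single-stranded and melted DNA and acts as a cofactor of transcription by RNA polymerase II. The data were 4 deposited peak lists, 1 for each library of cells sorted from bone marrow. The 2 HSC libraries came from hematopoietic stem cells, gated as CD48-, CD150+ cells within the Lin-, Sca-1+, c-Kit+ fraction (LSK), and the 2 LSC libraries from leukemia stem cells, gated as Lin-, Sca-1-, c-Kit+, CD16/32+ and CD34+, of mice with disease driven by the MLL-AF9 fusion. All donors in both groups carried the genotype Nup214fl/+, with 1 floxed and 1 wild-type allele of a nuclear pore gene, and no Cre is named. Age is not given in the sources used here, and nothing in the labels tells whether libraries were made from different mice, so each p-value concerns these libraries alone. With so few libraries it takes its smallest value whenever all differences share a sign or the groups do not overlap, whatever their spread. A peak in such bulk material does not tell how many of the cells carry the protein there. The cell type label is hematopoietic stem cell for all 4, and the groups rest on the gates and the disease model.

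The lists differed in length, with 115881 peaks for HSC 1, 235680 for HSC 2, 41097 for LSC 1 and 34185 for LSC 2, and peak names in all 4 carry a prefix (H4-Cut) that the labels do not explain. Genes of the gating markers were looked up within 1 kb of the gene body. Ly6a, which encodes Sca-1, had 4 peaks in each HSC list and 0 in each LSC list, and Slamf1, which encodes CD150, had 1 and 7 against 0 and 0, whereas Kit, Cd34, Cd48 and Fcgr3 had at least 1 peak in every list. The HSC folds were 9.33 and 12.2 at Ly6a and 4.67 and 10.2 at Slamf1. These counts are from the deposited lists, of which the HSC lists are the longer, and are not given for equal lists. Because list length alone moves a share of occupied gaps, the main shares are given for the deposited lists and again for lists of equal size, which keep the 34185 strongest peaks of a library by -log10 p. The fold that is quoted for a peak is the value given by the authors' peak caller, and it is used only to describe and order peaks within 1 library.

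Where 2 genes start back to back, the DNA between them can act as a bidirectional promoter, from which RNA polymerase II leaves in both directions. Such promoters are typically rich in CpG dinucleotides and poor in TATA boxes, and genes for DNA repair, ribosomes and mitochondria are well known examples. Where 2 genes end towards each other, the gap holds the 3' ends of both, where transcripts are cleaved and the polymerase is released. In a same-direction pair the gap joins the end of the upstream gene to the start of the downstream gene. A comparison of the orientations therefore sets gene starts against gene ends, with the distance between genes limited to 1 kb in every class.

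The head-to-head gaps below are shown because they held the strongest peaks of their class in all 4 lists, because they are known shared promoters, because they start a nucleoporin gene, or because they held no peak or an LSC peak alone. The letters are RefSeq sequence of GRCm38.p6, plus strand, 5' to 3', covering the gap alone without the added 500 bp. Capitals mark matches on either strand to the CCAAT box (CCAAT), the GC box bound by Sp1 (GGGCGG), the NRF1 core (GCATGC), an ETS site (CCGGAAG), the TATA box (TATAAA) or the ZBTB33 core (TCGCGA). These motifs do not overlap in the gaps shown, and a match is a description of the letters and not a bound site. The first 5 gaps are Ccdc115/Imp4 (chr1:34439673-34439828), Hdlbp/Septin2 (chr1:93478918-93478980), Mrpl32/Psma2 (chr13:14613038-14613241), Psmb9/Tap1 (chr17:34187331-34187555) and Vmac/Ndufa11 (chr17:56717700-56717761), the leaders by peak rank.
Ccdc115/Imp4: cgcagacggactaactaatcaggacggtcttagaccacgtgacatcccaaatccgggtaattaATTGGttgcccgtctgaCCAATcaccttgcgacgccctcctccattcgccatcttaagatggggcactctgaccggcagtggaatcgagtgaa
Hdlbp/Septin2: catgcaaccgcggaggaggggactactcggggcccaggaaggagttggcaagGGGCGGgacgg
Mrpl32/Psma2: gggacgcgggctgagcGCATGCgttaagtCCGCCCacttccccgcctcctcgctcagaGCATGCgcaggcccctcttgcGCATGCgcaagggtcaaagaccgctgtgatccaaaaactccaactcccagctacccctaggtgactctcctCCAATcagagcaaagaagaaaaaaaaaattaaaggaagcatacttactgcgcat
Psmb9/Tap1: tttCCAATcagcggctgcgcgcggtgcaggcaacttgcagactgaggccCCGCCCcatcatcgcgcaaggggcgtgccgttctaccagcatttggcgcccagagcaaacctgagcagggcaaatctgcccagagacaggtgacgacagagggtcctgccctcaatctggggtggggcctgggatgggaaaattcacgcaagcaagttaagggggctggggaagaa
Vmac/Ndufa11: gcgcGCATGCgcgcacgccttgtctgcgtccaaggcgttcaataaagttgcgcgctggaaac
The gaps of Atm/Npat (chr9:53536829-53536888), Mrps12/Sars2 (chr7:28741822-28741956), Dolk/Nup188 (chr2:30286355-30286406) and Nup88/Rpain (chr11:70969974-70970129) were also occupied in all 4 lists.
Atm/Npat: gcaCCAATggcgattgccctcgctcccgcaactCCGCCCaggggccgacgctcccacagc
Mrps12/Sars2: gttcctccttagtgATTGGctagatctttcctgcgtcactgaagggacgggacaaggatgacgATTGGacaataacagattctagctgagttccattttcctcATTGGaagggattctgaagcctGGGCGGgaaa
Dolk/Nup188: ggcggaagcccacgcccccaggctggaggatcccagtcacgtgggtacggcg
Nup88/Rpain: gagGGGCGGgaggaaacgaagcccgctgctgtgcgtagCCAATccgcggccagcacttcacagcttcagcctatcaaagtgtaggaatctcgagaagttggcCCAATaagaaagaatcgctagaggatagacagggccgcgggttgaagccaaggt
The gaps of Ctnnd1/Btbd18 (chr2:84658978-84659071) and Nup62cl/Dnaaf6b (chrX:140062708-140062878) held no peak in any list, and that of Pecr/Tmem169 (chr1:72284322-72284350) held a peak in both LSC lists and in neither HSC list.
Ctnnd1/Btbd18: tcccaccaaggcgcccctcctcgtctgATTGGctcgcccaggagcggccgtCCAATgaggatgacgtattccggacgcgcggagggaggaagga
Nup62cl/Dnaaf6b: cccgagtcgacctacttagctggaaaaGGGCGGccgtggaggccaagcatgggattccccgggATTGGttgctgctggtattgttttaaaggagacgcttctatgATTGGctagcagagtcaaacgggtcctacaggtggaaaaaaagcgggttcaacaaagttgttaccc
Pecr/Tmem169: gcccctaagtccgcgtggtcccgcctcag
The occupied gap of Mrpl32/Psma2 holds 3 NRF1 cores and that of Mrps12/Sars2 holds 3 CCAAT boxes, while the occupied gap of Dolk/Nup188 holds none of the motifs searched. The empty gaps of Ctnnd1/Btbd18 and Nup62cl/Dnaaf6b hold 2 CCAAT boxes each. The presence of a CCAAT box or a GC box alone thus did not divide the gaps shown into occupied and empty ones. Among the gaps shown, the NRF1 core was in occupied gaps only. No gap shown holds an ETS site, a TATA box or a ZBTB33 core, so these gaps tell nothing about those motifs.

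Sub1 peaks covered most head-to-head gaps in every library and a smaller part of the tail-to-tail gaps. A peak overlapped 94.3% of the 575 head-to-head regions in HSC 1, 95.3% in HSC 2, 94.1% in LSC 1 and 93.4% in LSC 2. Of the 445 same-direction regions, 75.7%, 83.6%, 69.2% and 68.1% were occupied in the same order. Of the 429 tail-to-tail regions, 50.6% were occupied in HSC 1 (95% Wilson interval 45.9 to 55.3%), 62.7% in HSC 2 (58.0 to 67.1%), 28.4% in LSC 1 (24.4 to 32.9%) and 31.0% in LSC 2 (26.8 to 35.5%). These intervals cover counting error over regions only. The order head-to-head, same direction, tail-to-tail was the same in all 4 libraries. Head-to-head exceeded tail-to-tail by 43.7, 32.6, 65.6 and 62.4 percentage points, a mean of 51.1 ± 15.7 (SD, n = 4 libraries), with an exact sign-flip permutation p of 0.13 (two-sided), the smallest that 4 libraries can give. Same-direction gaps stood 31.0 points above tail-to-tail gaps and 20.1 points below head-to-head gaps, each difference with the same sign in 4 of 4 libraries and the same exact permutation p of 0.13.

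In lists of equal size the orientations stood further apart. Head-to-head shares were then 91.7%, 91.7%, 94.1% and 93.4%, same-direction shares 63.4%, 64.0%, 67.6% and 68.1%, and tail-to-tail shares were 29.8%, 28.4%, 25.6% and 31.0%. The difference was 64.0 ± 3.04 points (SD, n = 4 libraries). Shortening the HSC lists thus took away peaks over tail-to-tail gaps and left nearly all of those over head-to-head gaps.

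**Figure D1:**
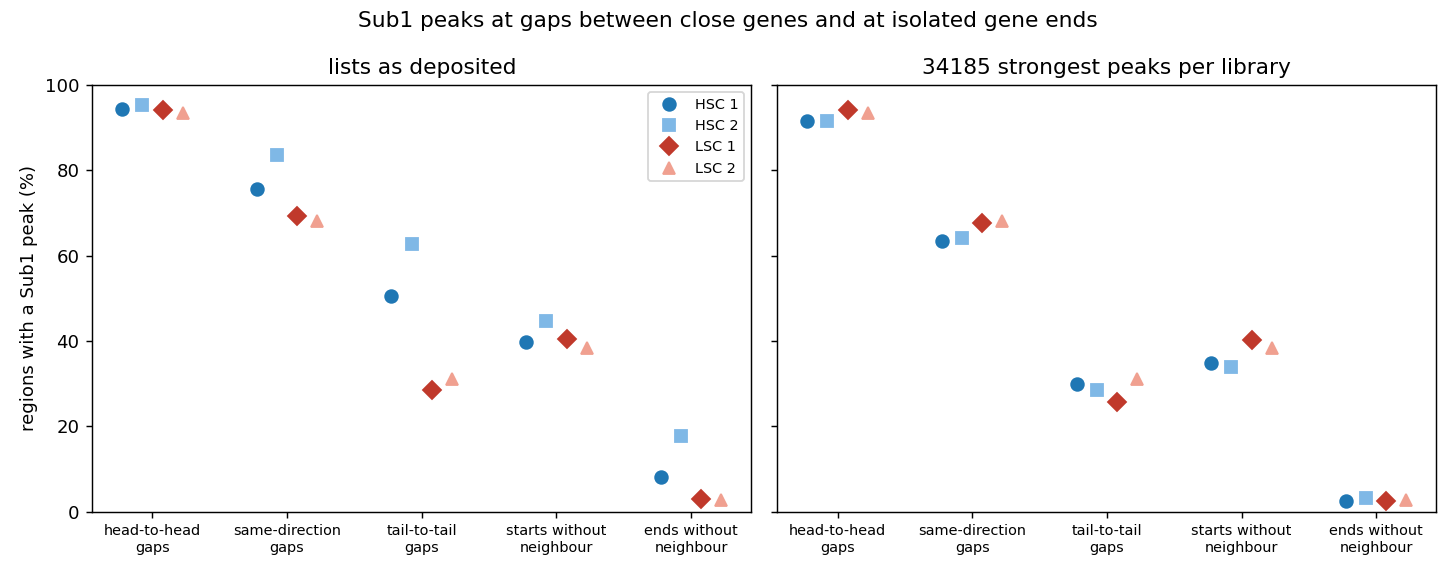
Share of regions with a Sub1 peak (y axis, percent) for the 3 orientations and for windows at isolated gene starts and ends (x axis), in the deposited lists and in lists of equal size, with 1 point per library. Head-to-head gaps sit between 93.4 and 95.3% in the deposited lists, and the HSC points for tail-to-tail gaps fall from 50.6 and 62.7% to 29.8 and 28.4% at equal size.

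Head-to-head gaps were occupied more often than gene starts that lie alone. Windows of 1 kb around the 9679 gene starts with no other coding gene within 10 kb held a peak in 42.2% ± 3.49 (SD, n = 2) in HSC and 39.4% ± 1.58 (SD, n = 2) in LSC libraries. The head-to-head share was higher by 54.5, 50.6, 53.5 and 55.1 points in HSC 1, HSC 2, LSC 1 and LSC 2, a mean of 53.4 ± 1.97 points (SD, n = 4 libraries, exact sign-flip permutation p = 0.13). A head-to-head region holds the starts of 2 genes and an isolated window holds 1. Its width also differs from the window's, and a fixed window of 1 kb at the centre of the gap, an alternative chosen after seeing the data, gave a difference of 53.3 points. In equal lists isolated starts held a peak in 34.3% ± 0.636 (SD, n = 2) in HSC and 39.2% ± 1.29 (SD, n = 2) in LSC libraries, and the difference was 55.9 ± 1.74 points (SD, n = 4 libraries). Over windows at all 17491 gene starts of known strand the excess was smaller. It was 42.0 ± 2.26 points in the deposited lists and 45.0 ± 1.48 in equal lists (SD, n = 4 libraries).

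Tail-to-tail gaps were occupied more often than gene ends that lie alone, which held a peak in 12.9% ± 6.74 (SD, n = 2) in HSC and 2.93% ± 0.199 (SD, n = 2) in LSC libraries, over 8532 windows. The difference was 42.4, 45.0, 25.4 and 28.2 points, with a mean of 35.3 ± 9.91 (SD, n = 4 libraries, exact sign-flip permutation p = 0.13). A tail-to-tail region holds the ends of 2 genes and is mostly wider than an isolated window. The fixed window of 1 kb at the centre of the gap, chosen after seeing the data, gave a mean difference of 30.7 points. Keeping only pairs with both genes of at least 5 kb gave 21.3 points. Over windows at all 17491 gene ends of known strand the excess was 23.5 ± 7.07 points, and 16.8 ± 1.56 in equal lists (SD, n = 4 libraries). Against copies of the same regions moved along the chromosome the margin was smaller. The tail-to-tail regions moved by 50 kb towards higher coordinates held a peak in 45.3% (HSC mean) and 20.3% (LSC mean), and in 47.6% and 19.6% when moved towards lower ones. The regions in place exceeded their moved copies by 10.4 ± 3.04 and 9.62 ± 1.54 points (SD, n = 4 libraries, higher in 4 of 4 for each direction, exact sign-flip permutation p = 0.13). In equal lists isolated ends fell to 2.92% in HSC beside 2.64% in LSC libraries (means), and the excess of tail-to-tail gaps over them to 25.9 ± 2.26 points (SD, n = 4 libraries). The moved copies then held a peak in 21.3% and 21.9% (HSC means) and 19.5% and 18.9% (LSC means), and the regions in place exceeded them by 8.33 ± 1.32 and 8.33 ± 2.01 points (SD, n = 4 libraries, higher in 4 of 4).

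The length of the gap mattered little within the first 500 bp of the head-to-head class. Averaged over the 4 libraries, 96.5% of the 288 head-to-head gaps of at most 100 bp, 93.5% of the 162 longer gaps of up to 250 bp and 97.9% of the 83 longer ones of up to 500 bp were occupied. The share was 74.4% for the 42 gaps over 500 bp, and every library stood lower there than in its other bins. Same-direction gaps had 62.3%, 84.0%, 73.7% and 74.0% in the same bins, the shortest being the least occupied on average. Tail-to-tail gaps had 49.1%, 40.6%, 47.8% and 38.7%, with no steady order of length. In equal lists the bins averaged 94.9%, 92.6%, 97.0% and 69.6% for head-to-head, 51.3%, 76.0%, 64.7% and 66.6% for same-direction and 35.7%, 27.8%, 32.5% and 23.2% for tail-to-tail gaps. Head-to-head gaps were also the shortest, with a median of 100 bp against 449 bp for same-direction and 374 bp for tail-to-tail gaps, and 450 of the 575 measured at most 250 bp.

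**Figure D2:**
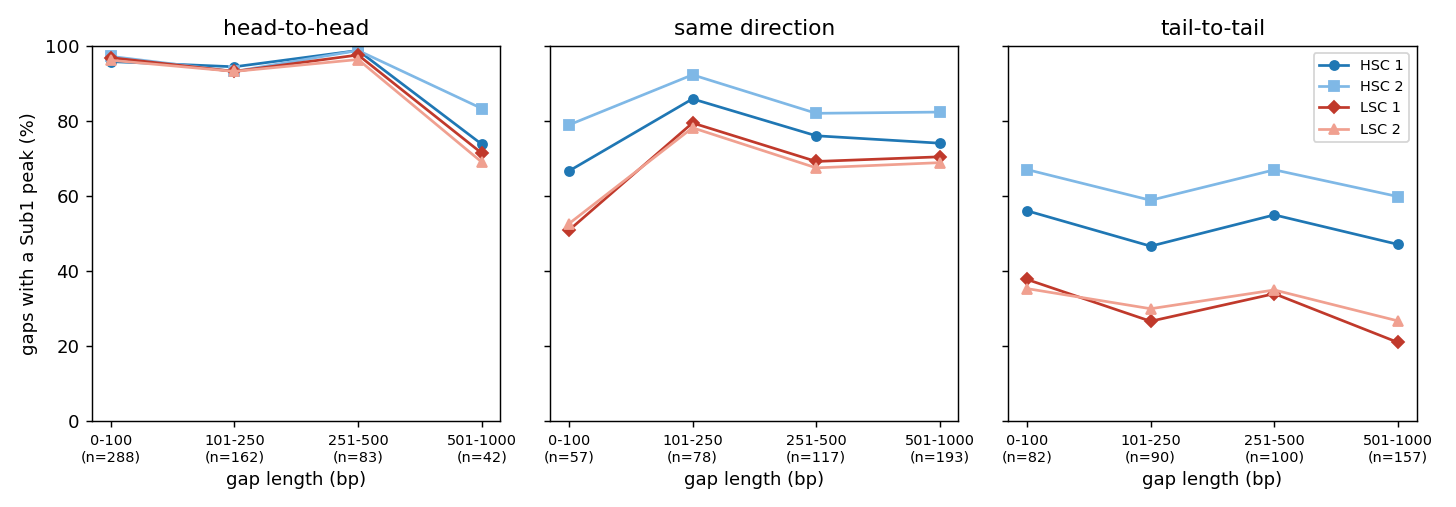
Share of gaps with a Sub1 peak in the deposited lists (y axis, percent) by length of the gap in bp (x axis, with the number of gaps in each bin), in 1 panel per orientation and with 1 line per library. Head-to-head gaps stay high up to 500 bp and average 74.4% in the longest bin, while the HSC and LSC lines of tail-to-tail gaps run apart at every length.

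The peaks at head-to-head gaps were broad and lay across the whole gap. The strongest peak of a region spanned the gap from end to end in 91.7%, 88.7%, 98.2% and 97.0% of occupied head-to-head regions in HSC 1, HSC 2, LSC 1 and LSC 2. It did so in 27.2%, 32.0%, 23.8% and 43.6% of occupied tail-to-tail regions, whose gaps are longer. Median peak widths were 2700.5, 3029.5, 3161 and 3673 bp at head-to-head gaps and 779, 881, 1187.5 and 1862 bp at tail-to-tail gaps. The authors' fold had a median of 39.1, 52.9, 163 and 118 at head-to-head gaps and of 10.6, 11.3, 14.0 and 19.1 at tail-to-tail gaps in the same libraries. In each library the head-to-head peaks were thus the wider and the stronger of these classes.

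The summit, the position of highest signal, lay at a median of 275, 287, 257 and 243 bp from the centre of a head-to-head gap, and in the gap itself in 10.9%, 8.58%, 8.32% and 9.50% of peaks. Most summits thus lay to the side of the gap, which measured 100 bp in the median, and within the gap or the 500 bp on either side in 80.3%, 75.7%, 83.7% and 84.2% of peaks. At tail-to-tail gaps the median distance was 673, 631, 816 and 924 bp. The strongest tail-to-tail peak covered the annotated start of a coding gene in 24.4%, 18.6%, 37.7% and 43.6% of cases.

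In same-direction pairs the summit lay on the side of the downstream gene's start. It was nearer to that start than to the end of the upstream gene in 74.2% of 337 peaks in HSC 1, 68.5% of 372 in HSC 2, 83.8% of 308 in LSC 1 and 81.2% of 303 in LSC 2. The mean was 76.9% ± 6.90 (SD, n = 4 libraries), above 50% in 4 of 4 libraries (exact sign-flip permutation p = 0.13, two-sided). In the deposited lists the LSC values lay above the HSC values without overlap, a difference that was not tested. The mean over the 4 libraries was 79.3% in equal lists, for which values per library are not given. In the deposited lists the median summit stood 177, 197.5, 242 and 330 bp past the downstream start. The pair Aif1l/Nup214 is of this kind. Nup214, the gene that is floxed on 1 allele in all donors, starts 965 bp after the end of Aif1l, which encodes an actin-bundling protein (gap at chr2:31973443-31974407, both genes on the plus strand). The peak there had a fold of 33.2, 60.3, 207 and 173 in HSC 1, HSC 2, LSC 1 and LSC 2, and its summit was at position 31974647, 31974635, 31974647 and 31974650, all within Nup214 and close together. A peak at Nup214 was thus present in all 4 libraries with a summit just past its start.

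**Figure D3:**
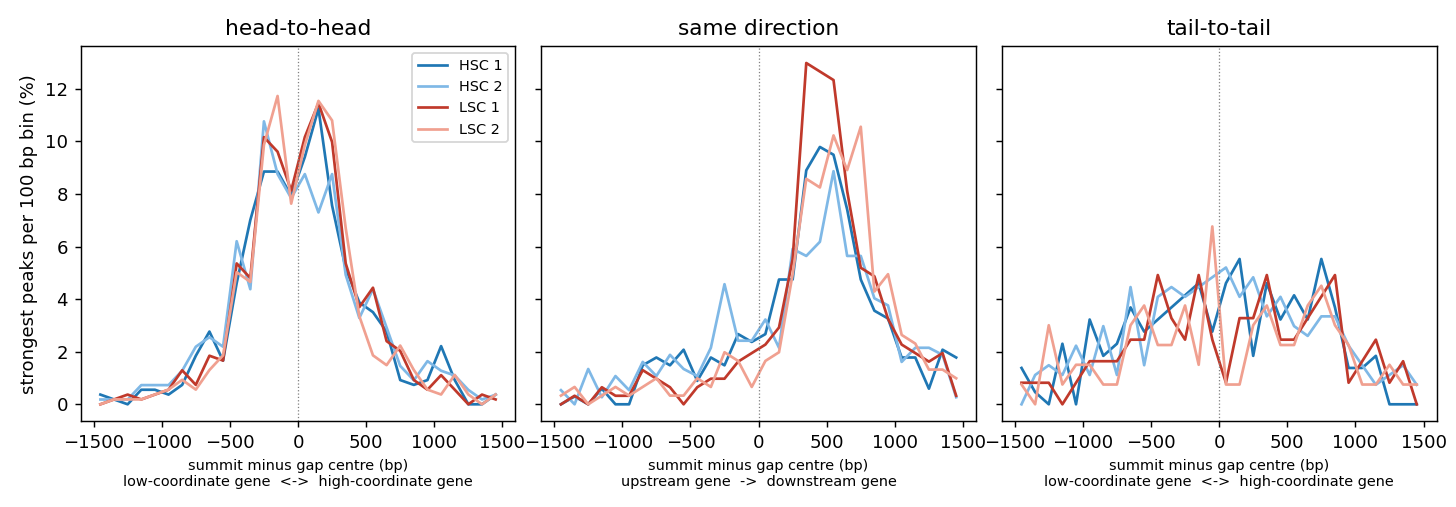
Position of the strongest peak's summit relative to the centre of the gap (x axis, bp) as the share of occupied regions per 100 bp bin (y axis, percent), in 1 panel per orientation and with 1 line per library. At head-to-head gaps summits gather on both sides of the centre, at a median distance of 243 to 287 bp. They lie mostly on the side of the downstream gene in same-direction gaps and are spread widely at tail-to-tail gaps.

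Tail-to-tail gaps near a gene start were occupied more often than those far from one. Of the 27 tail-to-tail regions within 1 kb of the nearest coding start, 85.2%, 81.5%, 63.0% and 55.6% were occupied in HSC 1, HSC 2, LSC 1 and LSC 2. At 1 to 5 kb the shares of 150 regions were 69.3%, 82.7%, 52.0% and 54.7%, and at 5 to 20 kb those of 176 regions were 46.6%, 56.8%, 14.8% and 18.8%. Of the 76 regions over 20 kb from any coding start, 8 were occupied in HSC 1, 23 in HSC 2, 1 in LSC 1 and 3 in LSC 2, which is 10.5%, 30.3%, 1.32% and 3.95%. Every library fell from the 5 to 20 kb bin to the last. In lists of equal size the shares over 20 kb were 1.32%, 1.32%, 1.32% and 3.95%. Starts of genes without strand are missing from these distances.

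The 85 tail-to-tail gaps in all 4 lists lay at a median of 2063 bp from a coding start, and the shorter gene of the pair measured a median of 2628 bp. The 115 in no list lay at a median of 17058 bp, with a shorter gene of 17927 bp. A coding start within 2 kb was found for 47.1% of the former and 5.22% of the latter. When both genes measured at least 5 kb, 37.8%, 51.3%, 12.0% and 15.7% of 267 tail-to-tail gaps remained occupied in HSC 1, HSC 2, LSC 1 and LSC 2, while 95.0%, 95.7%, 95.5% and 94.8% of 423 head-to-head gaps were. In equal lists, a combination added after seeing the data, the shares were 16.5%, 13.9%, 8.61% and 15.7% for these tail-to-tail gaps and 92.4%, 92.0%, 95.5% and 94.8% for these head-to-head gaps.

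**Figure D4:**
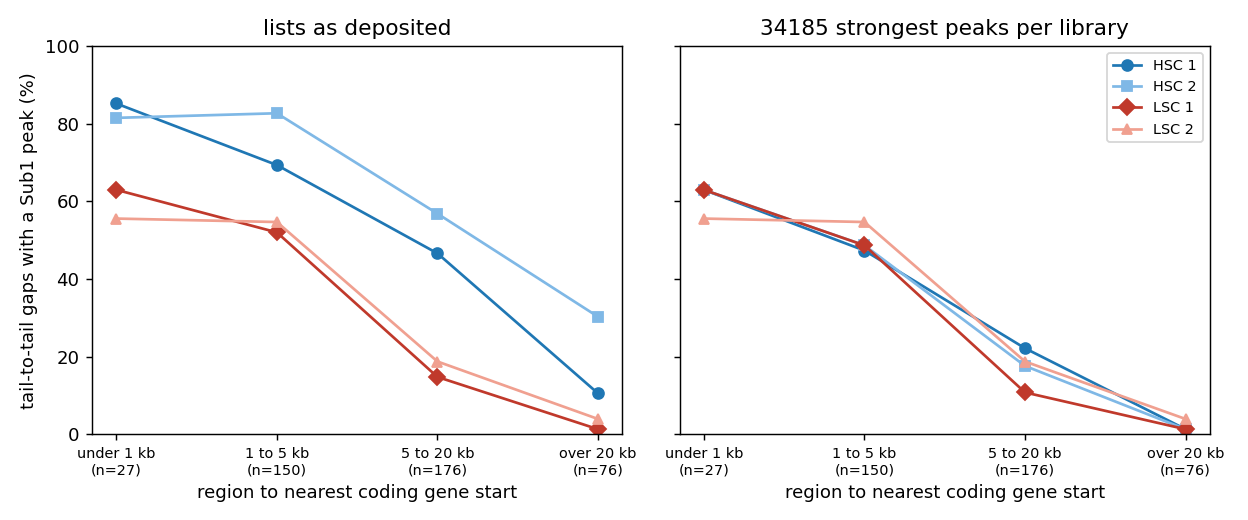
Share of tail-to-tail gaps with a Sub1 peak (y axis, percent) by distance from the region to the nearest annotated coding start (x axis, with the number of gaps in each bin), in the deposited lists and in lists of equal size, with 1 line per library. All lines fall from the bin of 1 to 5 kb to that of over 20 kb, where the LSC libraries stand at 1.32 and 3.95%.

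Genes that start at a head-to-head gap and end at a tail-to-tail gap allow the same comparison within a gene. This comparison was added after the data were seen and is given without a test. There were 98 such genes, and some share a gap. The start gap was occupied for 93, 94, 89 and 89 of them in HSC 1, HSC 2, LSC 1 and LSC 2, and the end gap for 55, 65, 31 and 34. In LSC 1 the start gap alone was occupied for 62 genes and the end gap alone for 4, and in HSC 1 these counts were 40 and 2. Among the 76 genes of at least 5 kb, the end gap was occupied for 37, 44, 17 and 17, and among the 22 shorter genes for 18, 21, 14 and 17. In equal lists the start gap was occupied for 87, 88, 89 and 89 of the 98 genes and the end gap for 29, 34, 25 and 34, so that the HSC counts for the end came near the LSC counts. For the genes of at least 5 kb the end gap was then occupied for 14, 16, 12 and 17.

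The following examples were chosen after their values were seen. Psmd13, a subunit of the proteasome's regulatory particle, shares a head-to-head gap with Sirt3, a mitochondrial deacetylase, with folds of 35.6, 42.4, 133 and 113, and its end gap towards Cox8b held no peak in any list. Mrps18c, a protein of the small mitochondrial ribosomal subunit, had folds of 39.5, 60.1, 186 and 120 at the gap it shares with the helicase gene Helq and none at its end. Nup188, a scaffold nucleoporin, had folds of 76.1, 62.2, 326 and 208 at the gap with Dolk and a weaker HSC signal of 9.33 and 2.95, with no LSC peak, at its end gap towards Sh3glb2. Ribosomal protein genes are short, and for Rps2 and Rps28 the same broad peak covered the start and the end gap in every list. The opposite arrangement occurred at Btbd18, whose head-to-head gap was empty in all 4 lists while its end gap towards Selenoh was occupied in all 4.

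Of the 2022 gaps, 1201 (59.4%) were occupied in all 4 lists, against 25.8% of the 1 kb windows at both ends of all coding genes, and 286 (14.1%) in none, against 50.1% of those windows. By orientation, 532 head-to-head gaps (92.5%), 276 same-direction gaps (62.0%) and 85 tail-to-tail gaps (19.8%) were in all 4. In equal lists 1111 gaps (54.9%) were in all 4, against 23.1% of windows, and 543 (26.9%) in none, against 63.7%. Leaving out HSC 2 raised the number in no deposited list from 286 to 454. Neighbouring gaps can share a peak: 136, 145, 99 and 149 occupied regions of HSC 1, HSC 2, LSC 1 and LSC 2 shared their strongest peak with another region.

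The 5 leading head-to-head gaps by peak rank are described first. The authors' fold at Ccdc115/Imp4 was 70.7 for HSC 1, 173 for HSC 2, 374 for LSC 1 and 270 for LSC 2. Imp4 acts in processing of ribosomal RNA, and Ccdc115 in assembly of the vacuolar proton pump. At Hdlbp/Septin2, a lipoprotein- and RNA-binding protein and a filament-forming GTPase, it was 114, 170, 513 and 341. Mrpl32/Psma2, a mitochondrial ribosomal protein and a proteasome subunit, had 78.8, 119, 349 and 293, and Vmac/Ndufa11, which holds a subunit of respiratory complex I, had 110, 145, 376 and 286. Psmb9/Tap1, an immunoproteasome subunit and a peptide transporter of antigen presentation, had 90.6, 183, 406 and 374. These folds show how strong each peak was within its own list and are not compared between libraries.

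The leading same-direction pairs were Ncln/S1pr4, Myl6/Myl6b, Hgs/Mrpl12, Cnpy4/Mblac1 and Kri1/Cdkn2d. Ncln/S1pr4, with a sphingosine-1-phosphate receptor of blood cells, had folds of 110, 155, 397 and 334. The leading tail-to-tail pairs were Ubxn11/Sh3bgrl3, B3gnt8/Bckdha, Ppp1r14b/LOC114841036, Smarcc2/Myl6 and Rps2/Ndufb10. At Ubxn11/Sh3bgrl3 the folds were 84.0, 143, 478 and 343, and at B3gnt8/Bckdha 65.1, 104, 443 and 329. Several of these tail-to-tail peaks belong to a larger peak over a neighbouring start. Smarcc2/Myl6 shared its strongest peak with Myl6/Myl6b (102, 146, 258 and 201 in both), and Rps2/Ndufb10 shared its peak with the head-to-head gap Rnf151/Rps2 (62.6, 97.3, 269 and 198).

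Of the textbook examples of shared promoters looked up, 6 were pairs under the rule, and the rest overlapped in this annotation, lay farther apart or had another gene between them. All 6 were occupied in all 4 lists, as were 532 of all 575 head-to-head gaps (92.5%). Atm/Npat, the DNA damage kinase and the activator of histone transcription, had folds of 28.2, 35.2, 124 and 115. Mrps12/Sars2, a mitochondrial ribosomal protein and a mitochondrial tRNA synthetase, had 23.3, 77.2, 191 and 167. Mcm4/Prkdc, a subunit of the replicative helicase and the catalytic subunit of DNA-dependent protein kinase, had 41.8, 47.5, 246 and 156, and the strand of this pair was not known. The other three, Psmb9/Tap1, Wrap53/Trp53 and Brca1/Nbr1, are an antigen presentation pair and 2 pairs with a tumour suppressor.

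Gene families were read by counts of pairs in all 4 lists, beside 1201 of 2022 (59.4%) for all gaps, and a pair counts for a family when it holds at least 1 member. Head-to-head counts are to be read beside 532 of 575 (92.5%) for all head-to-head gaps, near which most of them lie. The pairs named from the ribosome, oxidative phosphorylation, DNA repair and histone lists were chosen after their values were seen. Of the 29 cytosolic ribosome pairs, 28 were in all 4 lists, the exception being Rpl36a/Gla, a tail-to-tail gap found in HSC 1 and LSC 1. Of the 48 pairs with a gene of oxidative phosphorylation, 44 were in all 4 lists, including all 23 head-to-head pairs such as Ndufb1/Cpsf2 (62.4, 90.1, 269 and 216) and Uqcrh/Lrrc41 (83.5, 69.7, 313 and 228). DNA repair and replication genes had 42 of 51 pairs in all 4 and 23 of 24 head-to-head pairs. The exception, Lig4/Abhd13 with the ligase of non-homologous end joining, lacked a peak in HSC 1 alone and had folds of 25.3, 57.4 and 41.4 in the other three libraries. Of the 97 genes of oxidative phosphorylation, 48.5% lay in a close pair, against 16.7% of all coding genes.

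Mitochondrial ribosome genes had 27 of 34 pairs in all 4 lists and all 16 head-to-head pairs. The proteasome had 10 of 16 pairs and all 6 head-to-head pairs, and 4 of its 6 pairs outside the set of 10 were tail-to-tail gaps found in 3 lists. Aminoacyl-tRNA synthetases had 10 of 15 pairs, with all 6 head-to-head pairs, and chaperones had 20 of 29, with 10 of 11. These lists were made from symbol patterns, which also take Psmc3ip and Hspg2, a recombination factor and an extracellular matrix proteoglycan. Among zinc finger genes, 27 of 39 pairs were in all 4 lists and all 12 head-to-head pairs.

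Replication-dependent histone genes, which are expressed in S phase and lie in clusters, had 23 of 24 pairs in all 4 lists. Their folds were, for example, 26.5, 40.7, 34.4 and 28.2 at H2bc13/H2ac13 and 34.1, 41.9, 43.1 and 41.1 at H2ac8/H2bc8. The exception was H2bc1/H2ac1, a pair of testis histone variants, with a fold of 5.67 in HSC 2 and no peak elsewhere. Olfactory receptor genes, which are silent outside sensory neurons, had 0 of 5 pairs in all 4 lists and 4 of 5 in none.

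Of 8 pairs with a gene linked to ferroptosis, an iron-dependent death by lipid peroxidation, 3 were in all 4 lists. The 8 pairs hold 5 tail-to-tail gaps, and 85 of all 429 tail-to-tail gaps (19.8%) were in all 4 lists. Gpx4/Sbno2, with the glutathione peroxidase that reduces lipid peroxides, is a tail-to-tail gap (chr10:80056440-80056991) with folds of 17.4, 52.8, 124 and 101. The summit was at 80056566 in HSC 1 and at 80053670, 80053776 and 80053711 in HSC 2, LSC 1 and LSC 2, so in these 3 it lay within Gpx4, upstream of the gap. Fth1/Best1, with the heavy chain of ferritin, had 42.5, 51.5, 121 and 110 from a peak whose summit also lay within Fth1. The remaining member was Wrap53/Trp53. Ncoa4/Timm23, Fdft1/Neil2, Sqle/Washc5 and Acss2/Gss, which hold genes of ferritin turnover, sterol synthesis and glutathione synthesis, had a peak in HSC 2 alone, with folds of 5.31 to 9.56. HSC 2 has the longest list. A peak in it alone was found at 168 of all 2022 gaps (8.31%) and at 16.8% of tail-to-tail gaps. Marchf8/Alox5 had none.

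Of 12 nuclear pore pairs, 5 were in all 4 lists, namely Aif1l/Nup214, Dolk/Nup188, Nup88/Rpain, Parpbp/Nup37 and Nup210l/Rps27. By orientation the 12 were 4 head-to-head, 1 same-direction, 4 tail-to-tail and 3 of unknown strand. Nup88/Rpain, whose Nup88 protein binds Nup214 at the cytoplasmic face of the pore, had folds of 33.4, 60.3, 162 and 102. Nup188/Sh3glb2 and Tpm3/Nup210l were in both HSC lists and no LSC list, as were 120 of all 2022 gaps (5.93%). Myg1/Aaas was missing from LSC 1 alone. In equal lists Nup188/Sh3glb2 kept its peak in HSC 1 alone and Tpm3/Nup210l in no list. Nup85/Gga3, Nup50/5031439G07Rik, Art3/Nup54 and Nup62cl/Dnaaf6b held no peak. Of the 5 pairs with a gene of stem cells or leukemia, Idh1/Pikfyve, Dot1l/Plekhj1 and Men1/Map4k2 were in all 4 lists. Dot1l, the histone methyltransferase recruited by MLL fusions, and Men1, which encodes the MLL partner menin, had folds of 43.2, 45.7, 166 and 124 and of 15.2, 21.5, 30.3 and 37.4. Hoxb5/Hoxb3 was in the HSC lists alone (8.35 and 14.0) and, in equal lists, in HSC 2 alone, and Ttc36/Kmt2a, with the gene of MLL itself, was in HSC 1 alone (6.39). Of the 39 listed markers of neutrophils, erythroid, B, T and NK cells, 2 lay in a pair: Epor, in both HSC lists alone (14.2 and 13.3), and Cd4, in HSC 2 alone (3.07).

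The deposited lists put more gaps in HSC than in LSC libraries, and lists of equal size turned the sign. A peak lay in 73.7% of the gaps for HSC 1, 80.3% for HSC 2, 65.4% for LSC 1 and 64.5% for LSC 2. The groups did not overlap, and the difference was 12.1 points (exact permutation p = 0.33, two-sided, the smallest that 2 libraries against 2 can give). In equal lists the values were 62.5% and 62.3% against 64.1% and 64.5%, a difference of -1.93 points with the same p. By orientation, the deposited difference was 1.04 points at head-to-head gaps, 11.0 at same-direction gaps and 26.9 at tail-to-tail gaps. For copies of these regions moved by 50 kb towards higher coordinates it was 18.3, 27.0 and 25.1 points in the same order. Moved towards lower coordinates, the copies gave 15.9, 31.3 and 28.0 points. The tail-to-tail difference was thus near that of its moved copies. In equal lists the difference at the gaps in place was -2.09, -4.16 and 0.816 points. The excess of head-to-head over tail-to-tail gaps was smaller in HSC than in LSC by 25.9 points in the deposited lists (38.1 against 64.0, exact permutation p = 0.33) and by 2.90 points in equal lists (62.5 against 65.4, exact permutation p = 0.67). The number of peaks per list thus moved with the group and with the tail-to-tail share, and the 2 cannot be told apart from the deposited lists.

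In both HSC lists and neither LSC list were 120 gaps (5.93%), against 3.64% of the 1 kb windows at the starts and 3' ends of all coding genes. In both LSC lists and neither HSC list were 9 gaps (0.445%, against 0.448% of these windows). Pairs made of 1 HSC and 1 LSC library alone held 12, 5, 19 and 13 gaps. Of the 120, 51 were tail-to-tail (11.9% of that class), 26 same direction (5.84%), 5 head-to-head (0.870%) and 38 of unknown strand (6.63%). The same pattern held for 5.32% of the windows at all 3' gene ends of known strand and for 1.83% of those at all gene starts. Without HSC 1 the number rose to 288, since HSC 2, which has the longest list, then stood alone for its group, and without HSC 2, LSC 1 or LSC 2 it was 173, 162 or 169. The 9 LSC gaps became 18, 21, 15 or 27 without HSC 1, HSC 2, LSC 1 or LSC 2. In equal lists the counts were 20 (0.989%, against 0.617%) for HSC and 47 (2.32%, against 1.84%) for LSC, and the mixed pairs held 13, 17, 12 and 13. Of the 20 HSC gaps, 19 were also HSC gaps in the deposited lists, and of the 47 LSC gaps, 9 were the deposited LSC gaps while 38 had a peak of lower rank in at least 1 deposited HSC list.

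**Figure D5:**
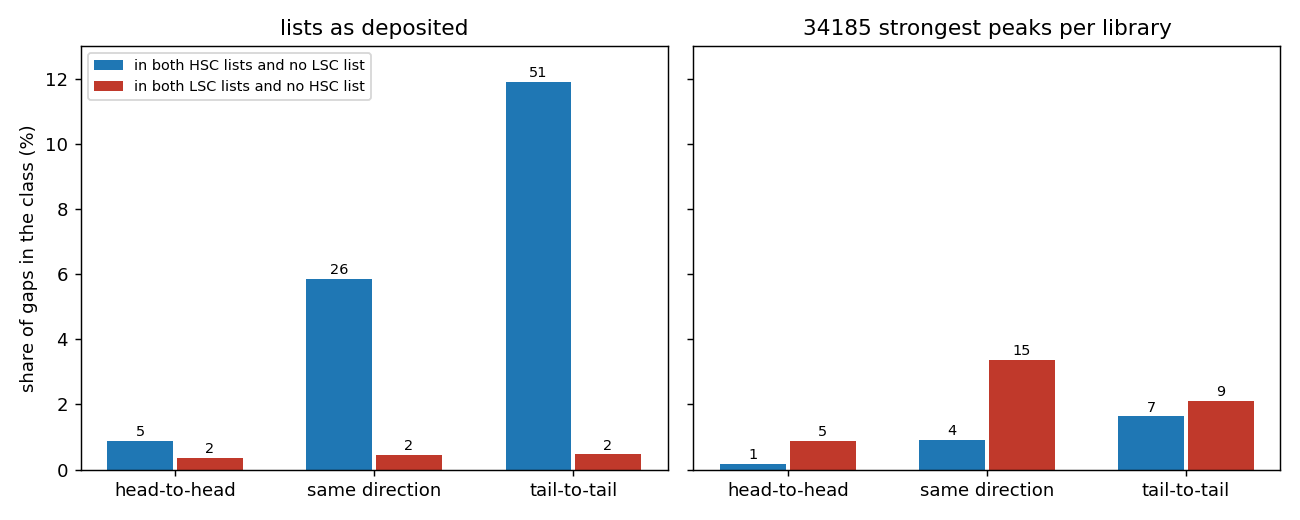
Share of gaps (y axis, percent) with a peak in both lists of 1 group and in neither list of the other, by orientation (x axis), in the deposited lists and in lists of equal size. The tallest bar, 11.9% of tail-to-tail gaps in the HSC lists alone, falls to 1.63% at equal size. Over windows at all 3' gene ends, not drawn, this share was 5.32% and fell to 0.829%.

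The leading HSC gap was Ciz1/1110008P14Rik, with folds of 27.0 and 29.9, where Ciz1 encodes a nuclear protein of DNA replication. Egfl7/Agpat2 followed with 15.0 and 19.5. Egfl7 encodes a secreted protein of endothelium and blood stem cells, and its 3' end faces that of Agpat2, an enzyme of phospholipid synthesis. Mrps15/Oscp1 (12.0 and 26.3), Pram1/Hnrnpm (13.3 and 15.1), Egfl8/Ppt2 (13.3 and 16.4), Foxred2/Eif3d (17.7 and 12.3) and Swsap1/Epor, whose Epor encodes the erythropoietin receptor, were in the same set. So were Cfb/C2 and the head-to-head pair Mpig6b/Ly6g6c, with a platelet inhibitory receptor (11.8 and 17.8).

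The folds of the 9 LSC gaps ran from 5.41 to 38.2 in LSC 1 and from 4.91 to 16.7 in LSC 2. Epb41l4b/LOC108168956 (38.2 and 16.7), Tead3/Tulp1 (30.1 and 13.6) and Pecr/Tmem169 (17.5 and 14.4) led them. The others were Adam3/Adam5, Nip7/Tmed6, S1pr3/Shc3, Tmem258/Myrf, Deaf1/Eps8l2 and Lhb/Ruvbl2. In equal lists the leading LSC gaps were pairs whose HSC peaks ranked too low to stay. Srm/Masp2, with the gene of spermidine synthase, had folds of 8.11, 7.20, 181 and 106 in HSC 1, HSC 2, LSC 1 and LSC 2. In Wdr5b/Fam162a and H1f0/Gcat, the latter with a linker histone of differentiated cells, HSC 1 had no peak and the other libraries had 5.90, 68.7 and 58.0 and 10.7, 58.1 and 29.8. Il17rb/Chdh had 6.39, 10.6, 61.3 and 24.9.

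Of the 575 head-to-head gaps, 43 were not in all 4 lists and 20 were in none. The empty pairs named here were chosen after their values were seen, apart from the 3 shortest empty gaps. Duox2/Duoxa2 is the thyroid peroxide generator and its maturation factor, Kirrel2/Nphs1 a pair of slit diaphragm genes of the kidney, Peg3/Usp29 a pair of imprinted genes, and Smc1b/Ribc2 and Mlc1/Mov10l1 hold genes of meiosis and of germline piRNA. Bhmt2/Dmgdh, of liver methyl group metabolism, 2 pairs of major urinary protein genes and the receptor pair Olfr181/Olfr183 were also empty. The 3 shortest empty gaps were Gm26650/Gm10410 (9 bp), Gm4779/8030474K03Rik (85 bp) and Ctnnd1/Btbd18 (94 bp). The 5 head-to-head gaps in HSC lists alone made up 0.870% of the class, against 1.83% of windows at all gene starts. They were Mpig6b/Ly6g6c, Acp4/Gm15517, Gfy/Pth2, Mast1/Rtbdn and Lyzl4/Vipr1. In equal lists 4 of them, all but Mpig6b/Ly6g6c, lost both HSC peaks.

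Head-to-head promoters in all 4 lists were richer in CpG than the rest. RefSeq promoter windows, from 250 bases before to 50 after the start, matched 882 of the 1143 genes of head-to-head pairs and 12719 of all 21883 coding genes at their annotated start. The ratio of observed to expected CpG had a median of 0.527 over all coding genes, 0.398 over 6988 isolated starts and 0.861 over head-to-head starts. It was 0.873 for the 824 head-to-head promoters in all 4 lists, 0.549 for the 58 others and 0.463 for the 27 of pairs in no list. Of the 824, 92.7% reached a ratio of 0.6, against 41.4% of the 58 and 45.2% of all promoters. Both promoters of a pair read overlapping DNA, so they are not independent.

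Same-direction pairs showed the same order at the downstream start, with a median CpG ratio of 0.729 for 201 promoters in all 4 lists and 0.297 for 25 in none, of which 1 reached 0.6. An ETS site (CCGGAAG, either strand) was present in 31.3% of the 824 head-to-head promoters, 8.62% of the 58 others and 11.7% of all promoters. The TATA box letters (TATAAA) were present in 4.98%, 15.5% and 15.4% of the same sets, the GC box (GGGCGG) in 70.0%, 44.8% and 43.4%, CCAAT in 45.9%, 60.3% and 40.6%, the NRF1 core in 12.4%, 6.90% and 8.37% and the ZBTB33 core in 8.98%, 5.17% and 3.07%. The 58 include promoters of gaps occupied in 1 to 3 lists. In the 27 of pairs in no list the shares were 3.70% for ETS, 7.41% for TATA, 44.4% for the GC box, 63.0% for CCAAT, 0% for NRF1 and 11.1% for ZBTB33. In the 58, the ETS and GC box letters were thus less frequent than in the 824 and CCAAT more frequent. The 27, being part of the 58, add no separate evidence. In sets this small a few promoters set each share, and the ZBTB33 and TATA shares of the 27 are not read further. For 437 of the 575 head-to-head gaps the letters of the gap itself could be read from these windows, with identical letters in all 383 that were covered by both promoters. The ETS letters were in 41 of these 437 (9.38%), namely in 41 of the 411 in all 4 lists and in 0 of the other 26. The GC box was in 159 and 7, CCAAT in 118 and 8, the NRF1 core in 26 and 0, TATA in 5 and 1 and the ZBTB33 core in 16 and 1. Of the 12 gaps in no list, 5 held the GC box and 5 CCAAT.

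At the limit of 1 kb, the pairs just inside were Pcgf2/Psmb3 (999 bp), Gm30191/Grrp1 (999 bp) and Nfkbiz/Nxpe3 (998 bp), all occupied in all 4 lists. Just outside were Pigz/0610012G03Rik (1001 bp) and Ankrd34a/Lix1l (1006 bp), both occupied in all 4, and Serpina7/4930513O06Rik (1006 bp), occupied in none.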

How the data were processed

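The tools named in the submitters' processing notes are Bowtie2 2.2.9 and FastQC 0.11.5, the peak caller MACS2 and ChIPseeker, and the build is mm10. The authors deposited 1 list per library. Handling of duplicates, a control, read totals and the versions of the other tools are not given in the sources used here, so depth is known only through list length. For every peak the authors' lists give a fold, which is a ratio of signal to background, and -log10 p and -log10 q values. The deposited score was found to be 10 times the -log10 q, without its decimals. The lowest -log10 q of a list was 5.21 to 5.41, and the median peak width 372 to 841 bp. A region counted as occupied when a peak overlapped it by at least 1 bp. Strand came from the RefSeq promoter table, which held 17491 of the 21883 coding genes.

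Computed here were the shares per library, their 95% Wilson intervals, two-sided exact permutation tests over libraries (6 assignments for 2 against 2) and exact sign-flip permutation tests within libraries, without adjustment for multiple testing, since none can fall below 0.13. Same-numbered libraries share only a number and were not paired. Named pairs were the 5 leading pairs per orientation by the lowest of 4 within-library percentiles of -log10 p, up to 10 per group alone, the textbook pairs, the pairs of the ferroptosis, nuclear pore, stem cell and marker lists, the 3 shortest empty head-to-head gaps and pairs at the 1 kb limit, and others are said to be chosen after their values were seen. A pair among these is not reported here. The regions, the gene lists and the tests were chosen with earlier results of these data known. Overlap and test code was tested on simulated data. Results were recomputed with a minimum -log10 q of 10, shorter lists, the summit or 50% coverage in place of any overlap, no added 500 bp, other gap limits, genes of at least 5 kb, no gene of any kind in the gap, gaps under another gene kept, autosomes alone and leaving out each library. The tools were SciPy 1.17.1, NumPy 2.4.6 and pandas 2.3.3 under Python 3.11.15, with matplotlib 3.10.9 for the plots.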

Additional observations from a re-analysis of the deposited data

Results flagged for a closer look

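Peaks on sequences outside the main chromosomes, which entered no comparison because no gene pair was taken there, numbered 686 in HSC 1, 1263 in HSC 2, 354 in LSC 1 and 300 in LSC 2. They are listed here because they are signal in data that the comparisons did not use. Groups of 2 libraries are too small for a search for outlying samples.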

How the results depend on the processing

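The difference between groups in the share of gaps with a peak, 12.1 points, changed sign in lists of 34185 peaks (-1.93) and of 17092 peaks (-3.17) and kept it in 16 of 18 alternatives. None of these 16 set the lists to equal length. They include the setting with the replicate number as a block, which uses the same shares and could not change the sign. The gaps in HSC lists alone, 120 of 2022, became 20 and 15 in those shorter lists and 29 with 50% of the region covered. They were 75 of 1432 gaps of at most 500 bp and 76 of 1333 gaps for genes of at least 5 kb. With 1 library left out they were 162 to 288. The LSC gaps, 9 of 2022, became 47 and 60 in shorter lists, 40 with the summit in the region and 22 with 50% covered. They were 17 of 2013 without the added 500 bp, 5 of 1432 at most 500 bp and 14 of 2949 at most 2 kb. For genes of at least 5 kb they were 5 of 1333, and with 1 library left out 15 to 27. The 1201 of 2022 gaps in all 4 lists became 611 by summit and 1210 to 1250 with 1 library left out. For genes of at least 5 kb they were 741 of 1333. The 286 of 2022 in no list became 543 and 728 in shorter lists, 513 by summit and 664 with 50% covered. They were 473 of 2013 without the added 500 bp, 162 of 1432 at most 500 bp and 464 of 2949 at most 2 kb. With 1 library left out they were 292 to 454. Where the number of gaps differs from 2022, a lower or higher count need not mean a changed share. Part of the change in these counts follows from fewer peaks, fewer or more regions, or fewer libraries. For the rest the cause was not tested. The contrasts of orientation kept their sign in 17 of 17 alternatives each: 46.2 to 72.8 points for head-to-head over tail-to-tail, 50.7 to 57.9 over isolated starts, 16.8 to 38.6 for tail-to-tail over isolated ends, and 74.6 to 83.8% for summits near the downstream start. With 1 library left out the share difference was 8.80 to 15.4 points, and the smallest sign-flip p was 0.25. With the replicate number as a block the difference was 12.1 points with p = 0.5, and deviations of same-numbered libraries had r = 0.102 over 1201 gaps, across regions, so the numbers were not taken to pair the libraries. The fixed window of 1 kb was added after seeing the data and moved no count or contrast by over 1.5 times. Depth is known only through list length, and it limits every statement on absent peaks.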
